A study of Homo sapiens with 12 samples.

Results

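The departure of a drug pair from additivity was measured for 14884 named genes in SK-N-BE(2) cells, a human neuroblastoma line with amplified MYCN. The cells had received vehicle, JQ1 at 1 µM, panobinostat at 10 nM, or JQ1 and panobinostat together, each for 6 h, and all 4 groups shared the same line and serum-containing medium. Each group was measured on 3 arrays, 12 in all. The genes are those named among the 53617 transcript clusters of the array (groups of probes assigned to 1 transcribed locus), with each symbol represented by the brightest of its clusters on average across all arrays. All 14884 were tested, with no filter on low signal. For each gene the log2 change with both compounds was compared with the sum of the log2 changes with each compound alone, all against vehicle. The difference between them is called the interaction here. An interaction of 0 means that the 2 fold changes multiplied, a positive value that the combination lay above that additive level, and a negative value that it lay below. The labels describe 1 cell line and do not state whether the 3 samples of a group came from separate cultures, so the error behind each p-value is that between these samples and could be purely technical.

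JQ1 occupies the acetyl-lysine pockets of BET proteins such as BRD2 and BRD3, which bind acetylated histones and bring the elongation kinase P-TEFb to RNA polymerase II. Panobinostat inhibits histone deacetylases (HDACs), so acetyl marks accumulate on histones and other proteins. One compound thus acts on the readers of histone acetylation and the other on its erasers, and in neuroblastoma both classes are studied for their effect on the MYCN-driven and adrenergic transcription programs.

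Most genes gave no call. The interaction passed the test (limma, Benjamini-Hochberg adjusted p under 0.05 over all genes) for 113 of 14884 genes, or 0.759%. In 46 genes (0.309%) the combination was higher than additive and in 67 (0.45%) it was lower. The genes lower than additive included SESN3, AHR, PAG1, SLIT2 and JAG1, which each compound raised, and UNC5C, MEIS2, HAND1 and PHOX2A, which were lowest with both compounds. Those higher than additive included NHSL2, RD3, POPDC2 and NPY2R, which each compound lowered, and MAP2K6, which JQ1 alone lowered. An unadjusted p under 0.05 was reached by 2037 genes. The median interaction over all genes was -0.016 with an SD of 0.239 across genes, against a median SE of 0.148 for a single gene. Values after ± are SEs from limma, with n = 3 arrays per group. The SE of an interaction is larger than the 0.105 of a difference between 2 groups, since it takes its error from all 4 groups.

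The number of calls moved with single arrays and with the scaling. It was 86, 65 and 60 without vehicle arrays 1, 2 and 3, 48, 49 and 62 without the 3 JQ1 arrays, 70, 58 and 56 without the 3 panobinostat arrays, and 71, 28 and 48 without the 3 combination arrays. It was 41 with each array centred on its median, 313 after quantile normalization, and 5 when p-values were adjusted over all 53617 clusters. All 113 genes kept the sign of their interaction in each of these settings. This was largely fixed in advance, as they were chosen on these same arrays and had interactions of at least 0.433 in size. The arrays correlated at 0.991 to 0.995 within groups, and vehicle array 1 and panobinostat array 1 stood farthest from their group means (root mean square distance 0.16 and 0.156, against a lowest of 0.111). Without those 2 arrays 94 genes were called, of which 57 were among the 113. Of the genes named below, RD3, TBX22, SNUPN, POLR3B, ATF7IP, ETS1, CRISPLD1, HAND1, PHOX2A, SFRP1, IFIT2 and the miRNA genes MIR548AA1, MIR4525 and MIR124-1 lost their call without this pair of arrays. With median-centred arrays TBX22, SNUPN, NPY2R, POLR3B, ATF7IP, TMEM169, CRISPLD1, SIPA1L2, HAND1, MEIS2, PHOX2A, IFIT2, MKNK2 and MIR124-1 did.

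**Figure D1:**
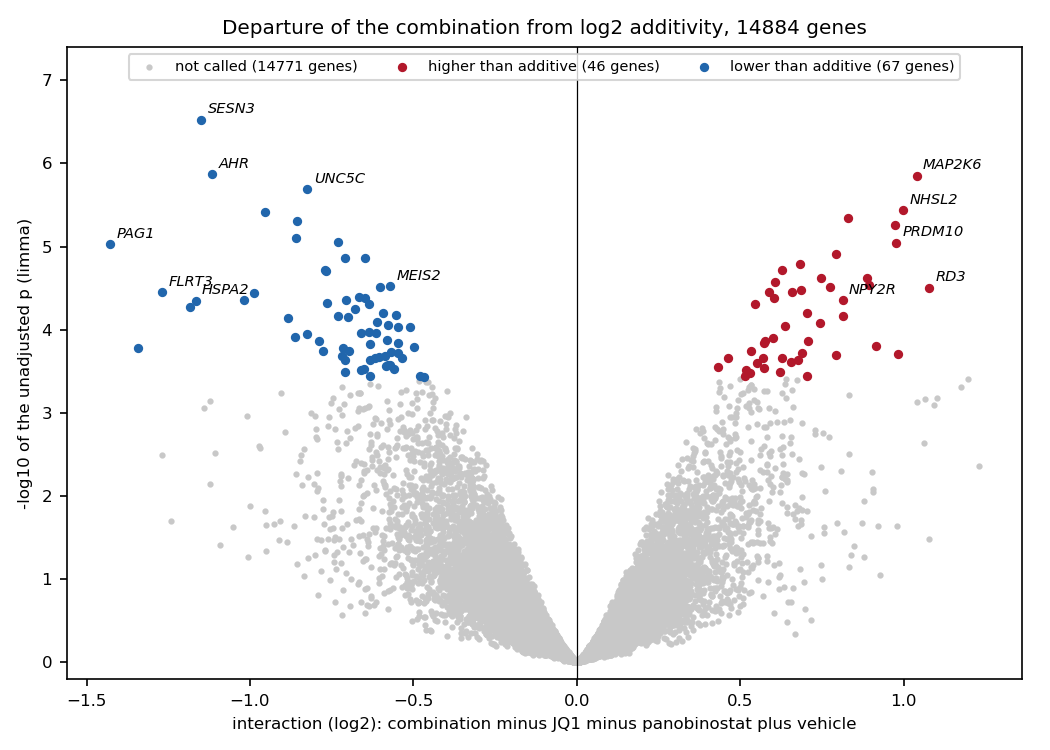
Interaction of each of the 14884 genes (x axis, log2) against the negative log10 of its unadjusted limma p (y axis). The 46 red points are higher and the 67 blue points lower than additive at an adjusted p under 0.05, and 14771 grey points were not called. SESN3 has the highest point on the left and MAP2K6 the highest on the right.

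An interaction can come about in different ways, so the position of the combination arrays was read beside it. Of the 46 genes higher than additive, the 3 combination arrays lay below all 3 vehicle arrays in 38, above them in 6 and among them in 2 (HEATR3 and NXN). Of the 67 genes lower than additive they lay above vehicle in 32, below it in 21 and among it in 14. Over all genes the combination lay above vehicle in 22.6% and below it in 23.5%. Most genes higher than additive were thus still reduced by the combination, but by less than the product of the single changes. The 3 combination arrays lay below the other 9 in 14 of the 46 and in 18 of the 67 genes, against 8.2% of all genes. They lay above the other 9 in 4 of the 46 (MAP2K6, MIR4525, NPAS4 and SCAMP4, the last 2 picked out after their values were seen) and in 8 of the 67, against 6.63% of all genes. The interaction shares its arrays with these positions, so they describe the called genes and were not tested.

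10 called genes departed by at least 1 log2 unit, 8 of them downward. PAG1, FLRT3, HSPA2, SESN3, AHR, RGS16, MIR548AA1 and MAPT-AS1 lay at least 2-fold under the additive level, and RD3 and MAP2K6 at least 2-fold above it. MAPT-AS1, an antisense RNA of the tau gene that falls outside the naming rule, had an interaction of -1.34 ± 0.24 (adjusted p = 0.0332). The number of genes at this size was 6 without combination array 2.

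The smallest p-values among genes lower than additive were those of SESN3 and AHR, which each compound raised on its own. SESN3 encodes a sestrin, a stress-induced regulator of the growth kinase complex mTORC1. Its log2 signal (cluster 16743432, chromosome 11) was 9.21, 9.04 and 9.20 with vehicle, 10.56, 10.62 and 10.55 with JQ1, 10.34, 10.56 and 10.56 with panobinostat, and 10.74, 10.78 and 10.77 with both. The 3 combination arrays were the highest of the 12, by a small margin over the single-compound arrays. JQ1 gave a change of 1.43 and panobinostat of 1.34, a sum of 2.76, whereas the combination gave 1.62. The interaction was -1.15 ± 0.11 (adjusted p = 0.00443), so the measured level was 2.22-fold under the additive one. The combination exceeded panobinostat alone by 0.28 (adjusted p = 0.0311) and JQ1 alone by 0.19, which did not pass the test (adjusted p = 0.101).

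AHR, a ligand-activated transcription factor that induces xenobiotic-metabolizing enzymes, also rose with each compound and was highest with both. Its log2 signal (cluster 17043856, chromosome 7) was 8.25, 8.42 and 8.41 with vehicle, 9.81, 9.79 and 9.88 with JQ1, 10.32, 10.37 and 10.51 with panobinostat, and 10.88, 10.60 and 10.78 with both. No groups overlapped. The single changes of 1.47 and 2.04 sum to 3.51, and the combination reached 2.39, an interaction of -1.11 ± 0.12 (adjusted p = 0.00694). AHR thus rose 5.25-fold with both compounds, where additivity would have given 11.4-fold. SESN3 and AHR stayed called when any 1 array was left out.

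PAG1 encodes a membrane adaptor that recruits the kinase CSK to Src-family kinases. It had the lowest interaction of the 113 called genes, -1.43 ± 0.19 (adjusted p = 0.0107). Its log2 signal was 8.59, 8.05 and 8.30 with vehicle, 10.33, 10.38 and 10.29 with JQ1, 9.54, 9.64 and 9.94 with panobinostat, and 10.24, 10.21 and 10.43 with both. The combination arrays overlapped the JQ1 arrays, and the difference between these groups was -0.04 (adjusted p = 0.884). HSPA2, an HSP70-family chaperone, had the corresponding pattern with panobinostat. Its arrays read 8.35, 7.88 and 8.15 with vehicle, 9.23, 9.23 and 9.25 with JQ1, 10.21, 10.06 and 10.36 with panobinostat, and 9.95, 10.16 and 10.36 with both. The combination overlapped panobinostat alone, from which it differed by -0.05 (adjusted p = 0.85). The interaction of HSPA2 was -1.17 ± 0.18 (adjusted p = 0.0166), and its adjusted p was 0.0553 without combination array 2 (interactions over all 12 omissions of 1 array -1.28 to -1.04).

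Among ligands, SLIT2 and JAG1 likewise rose with each compound, and with both they overlapped panobinostat alone. SLIT2, the secreted ligand of the ROBO axon guidance receptors, changed by 1.25 with JQ1, 1.43 with panobinostat and 1.69 with both. Its arrays read 6.81, 6.67 and 7.0 with vehicle, 8.08, 7.98 and 8.16 with JQ1, 8.13, 8.33 and 8.29 with panobinostat, and 8.55, 8.32 and 8.66 with both. All 9 treated arrays were above the vehicle arrays, and the combination overlapped panobinostat alone. The combination arrays lay above the JQ1 arrays, at a group mean of 8.51 against 8.07. The interaction was -0.99 ± 0.15 (adjusted p = 0.0164). JAG1, a membrane-bound NOTCH ligand, read 6.91, 6.90 and 6.97 with vehicle, 7.93, 7.85 and 7.77 with JQ1, 7.91, 8.03 and 8.08 with panobinostat, and 8.01, 7.99 and 8.21 with both. Its 9 treated arrays all fell between 7.77 and 8.21. The changes were 0.93, 1.08 and 1.14, so the combination was near either compound alone, with an interaction of -0.86 ± 0.11 (adjusted p = 0.0107).

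MKNK2 resembled AHR in that the combination did exceed both compounds. It encodes a MAP kinase-activated kinase that phosphorylates the translation factor eIF4E. Its arrays read 8.67, 8.41 and 8.59 with vehicle, 10.04, 9.91 and 9.96 with JQ1, 9.72, 9.75 and 9.87 with panobinostat, and 10.42, 10.41 and 10.46 with both. The combination was 0.46 above JQ1 (adjusted p = 0.00109) and 0.65 above panobinostat (adjusted p = 0.000333), with an interaction of -0.77 ± 0.11 (adjusted p = 0.0148). SIPA1L2, of a family of Rap GTPase-activating proteins, changed by 1.00, 0.84 and 1.06 with JQ1, panobinostat and both (interaction -0.78 ± 0.14, adjusted p = 0.0347). TMEM169, a membrane protein, changed by 0.71, 0.83 and 0.68 (interaction -0.86 ± 0.15, adjusted p = 0.029). These last calls depended on the arrays. SIPA1L2 stayed called only without JQ1 array 3 or panobinostat array 1, and TMEM169 only without vehicle array 1, JQ1 array 3 or panobinostat array 1, with interactions of -0.86 to -0.68 and -0.96 to -0.76 over the 12 omissions. The call of MKNK2 was lost with median-centred arrays.

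**Figure D2:**
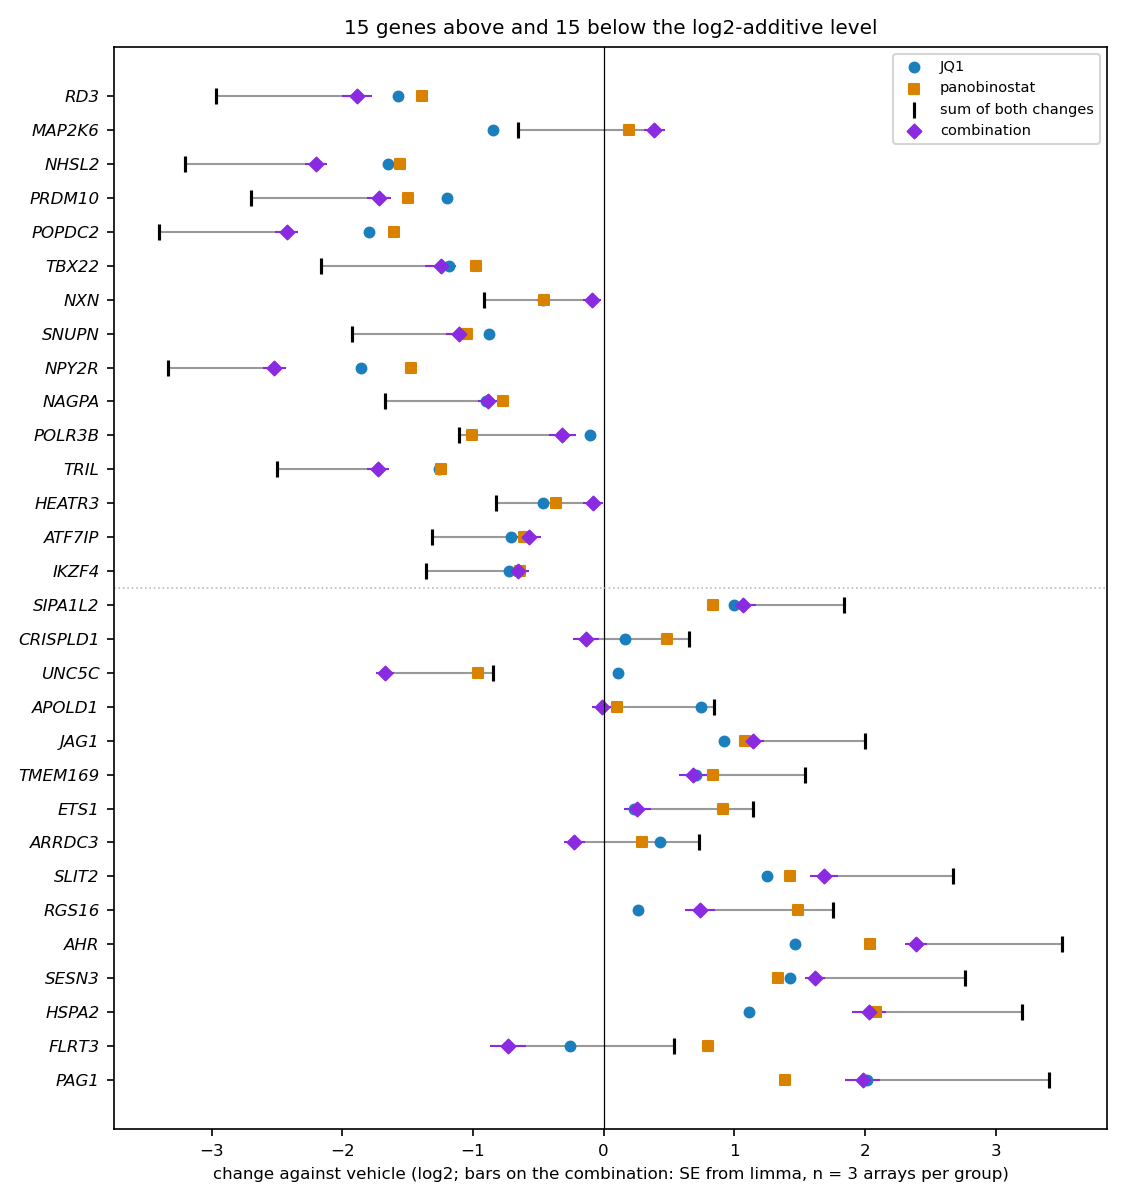
Log2 change against vehicle of the 15 protein-coding genes with the most positive interaction (upper block) and the 15 with the most negative (lower block) among called genes whose highest group mean reached that of the median gene. Circles mark JQ1, squares panobinostat, diamonds the combination (bars: SE from limma, n = 3 arrays per group) and upright bars the sum of the 2 single changes; the grey line between bar and diamond is the interaction. In PAG1, HSPA2, JAG1 and NAGPA the diamond sits on or beside a single-compound mark.

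In a second set of genes lower than additive, the level with both compounds was under that with 1 of them. RGS16, a GTPase-activating regulator of G-protein signaling, read 8.54, 8.23 and 8.64 with vehicle, 8.80, 8.63 and 8.79 with JQ1, 9.90, 9.89 and 10.09 with panobinostat, and 9.18, 9.09 and 9.36 with both. The panobinostat arrays were the highest and the combination lay between them and JQ1. Adding JQ1 to panobinostat lowered RGS16 by a log2 difference of -0.75 (adjusted p = 0.0012), and the interaction was -1.02 ± 0.16 (adjusted p = 0.0166). ETS1, a transcription factor downstream of RAS and MAP kinase signaling, read 8.39, 8.71 and 8.34 with vehicle, 8.72, 8.85 and 8.56 with JQ1, 9.37, 9.42 and 9.38 with panobinostat, and 8.77, 8.79 and 8.64 with both. Its combination arrays overlapped both vehicle and JQ1, with a difference of -0.65 from panobinostat (adjusted p = 0.00163) and an interaction of -0.88 ± 0.15 (adjusted p = 0.0207). The call of RGS16 was lost without JQ1 array 1 or combination array 2 (interactions over all omissions -1.10 to -0.90). That of ETS1 was lost without vehicle array 3, JQ1 arrays 1 or 2, panobinostat arrays 2 or 3, or combination arrays 2 or 3 (-1.00 to -0.81).

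FLRT3, a leucine-rich repeat adhesion protein that binds UNC5 receptors and latrophilins, crossed from above to below vehicle. It read 8.71, 8.30 and 8.13 with vehicle, 7.98, 8.24 and 8.15 with JQ1, 9.06, 9.11 and 9.36 with panobinostat, and 7.60, 7.60 and 7.75 with both. Panobinostat arrays were the highest and combination arrays the lowest of the 12. Panobinostat alone raised FLRT3 by 0.80 (adjusted p = 0.000984), the combination lowered it (log2 change -0.73, adjusted p = 0.00113), and the JQ1 value of -0.26 did not pass the test (adjusted p = 0.249). The interaction was -1.27 ± 0.20 (adjusted p = 0.0164), and the adjusted p was 0.0545 without combination array 2 (interactions over all omissions -1.43 to -1.15).

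ARRDC3 and APOLD1 rose with JQ1 and overlapped vehicle with both compounds. ARRDC3, an arrestin-domain protein that directs membrane receptors to degradation, read 9.24, 9.12 and 9.04 with vehicle, 9.61, 9.59 and 9.50 with JQ1, 9.35, 9.47 and 9.46 with panobinostat, and 8.84, 8.84 and 9.05 with both. The combination overlapped vehicle (-0.22, adjusted p = 0.0505) and was under both compounds, with an interaction of -0.95 ± 0.12 (adjusted p = 0.00902). APOLD1, an early response gene first described in endothelial cells, changed by 0.75 with JQ1 (adjusted p = 6.77e-05), and its values of 0.10 with panobinostat and -0.01 with both did not pass the test. Its interaction was -0.86 ± 0.11 (adjusted p = 0.00902). CRISPLD1, which encodes a secreted cysteine-rich protein, had changes of 0.17, 0.48 and -0.14 and an interaction of -0.79 ± 0.14 (adjusted p = 0.0302). SFRP1, a secreted WNT antagonist, had 0.20, 0.33 and -0.04 and an interaction of -0.58 ± 0.10 (adjusted p = 0.0239). ARRDC3 and APOLD1 stayed called without any 1 array. CRISPLD1 stayed called only without vehicle array 1 or combination array 3 (-0.90 to -0.72 over all omissions), and SFRP1 only without a vehicle array or panobinostat array 2 (-0.61 to -0.52).

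**Figure D3:**
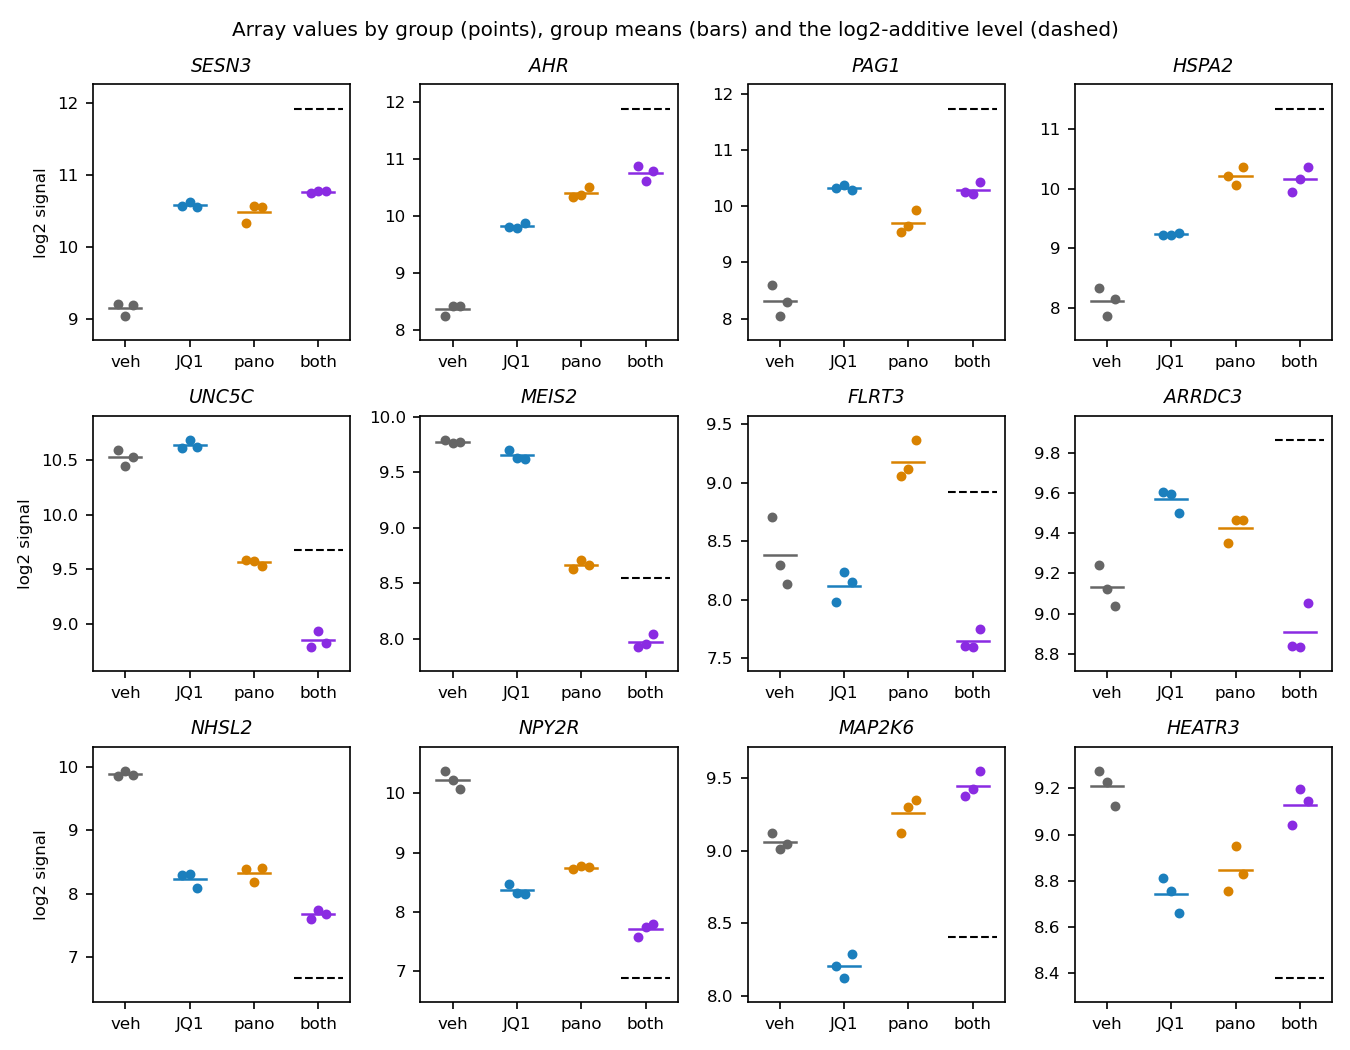
Log2 signal (y axes) of 12 called genes on each array (points) by group (veh: vehicle, pano: panobinostat, both: the combination); solid bars are group means and the dashed bar is the additive level. In SESN3 the combination points, 10.74 to 10.78, lie under the additive level of 11.91, and in NHSL2 those of 7.60 to 7.75 lie above the additive level of 6.68.

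In other genes the combination took a gene further down than the sum. UNC5C, a netrin receptor of axon guidance, read 10.60, 10.45 and 10.53 with vehicle, 10.61, 10.68 and 10.61 with JQ1, 9.59, 9.58 and 9.53 with panobinostat, and 8.79, 8.94 and 8.82 with both (cluster 16978054, chromosome 4). Vehicle and JQ1 arrays were high and close together, panobinostat arrays lower and combination arrays the lowest. The JQ1 value alone was 0.11 (adjusted p = 0.313), while JQ1 added to panobinostat gave -0.71 (adjusted p = 7.6e-05). The interaction was -0.82 ± 0.09 (adjusted p = 0.00764) and stayed called without any 1 array.

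3 of the adrenergic transcription factors, which maintain the sympathetic neuroblast identity of this tumor, were also lowest with both compounds and lower than additive. MEIS2, a TALE homeodomain factor, read 9.79, 9.76 and 9.78 with vehicle, 9.70, 9.63 and 9.62 with JQ1, 8.63, 8.71 and 8.66 with panobinostat, and 7.93, 7.95 and 8.05 with both. Its interaction was -0.57 ± 0.09 (adjusted p = 0.0164), and a second, dimmer MEIS2 cluster had -0.32. HAND1, a basic helix-loop-helix factor of the sympathetic lineage, read 11.23, 11.26 and 11.34 with vehicle, 11.11, 11.10 and 11.07 with JQ1, 10.92, 10.80 and 11.05 with panobinostat, and 10.26, 10.05 and 10.17 with both. The combination arrays stood apart as the lowest, and the changes of -0.18, -0.35 and -1.11 gave an interaction of -0.58 ± 0.11 (adjusted p = 0.0405). PHOX2A, a homeodomain factor that switches on noradrenaline synthesis genes, read 10.27, 10.43 and 10.35 with vehicle, 10.04, 10.07 and 10.08 with JQ1, 9.98, 9.86 and 9.98 with panobinostat, and 9.22, 9.20 and 9.14 with both. Its interaction was -0.47 ± 0.09 (adjusted p = 0.048). These calls were near the threshold: MEIS2 lost its call without combination array 2 (-0.61 to -0.55 over all omissions) and when its clusters were averaged (-0.45), HAND1 without any array but panobinostat array 2 and combination array 1 (-0.64 to -0.52), and PHOX2A without any 1 of the 12 (-0.51 to -0.43). All 3 were lost with median-centred arrays.

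The promoters of SESN3, AHR and UNC5C are shown because these are the genes, among the 5 whose call also held over all 53617 clusters, that have a single RefSeq start site. The other 2 are MAP2K6 and NHSL2. Each sequence is the 250 bases before the start, 5′ to 3′ on the gene's own strand, from RefSeq on GRCh38.p14. SESN3 is at chr11:95232476-95232725 (minus strand), AHR at chr7:17298402-17298651 (plus strand) and UNC5C at chr4:95548974-95549223 (minus strand). Capitals mark matches, on either strand, to CACGTG (the E-box letters), TGANTCA (AP-1), TGACGTCA (the cAMP response element), TATAAA (the TATA box), GGGCGG (the GC box) and CCAAT.
SESN3: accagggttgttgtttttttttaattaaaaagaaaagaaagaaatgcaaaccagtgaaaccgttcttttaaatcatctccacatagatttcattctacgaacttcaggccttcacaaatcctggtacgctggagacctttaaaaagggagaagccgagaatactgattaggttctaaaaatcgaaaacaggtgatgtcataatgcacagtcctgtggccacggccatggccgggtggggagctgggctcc
AHR: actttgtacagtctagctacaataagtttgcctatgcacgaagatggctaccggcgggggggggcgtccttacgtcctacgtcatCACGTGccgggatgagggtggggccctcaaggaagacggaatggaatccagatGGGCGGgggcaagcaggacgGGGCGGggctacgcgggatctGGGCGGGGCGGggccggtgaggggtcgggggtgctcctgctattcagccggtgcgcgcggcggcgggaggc
UNC5C: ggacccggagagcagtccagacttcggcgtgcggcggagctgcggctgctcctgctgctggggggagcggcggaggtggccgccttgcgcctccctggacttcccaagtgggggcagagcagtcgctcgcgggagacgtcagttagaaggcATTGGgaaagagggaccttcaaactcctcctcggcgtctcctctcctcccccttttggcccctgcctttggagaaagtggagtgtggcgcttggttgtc
The SESN3 window has 0 matches. The AHR window has CACGTG at position -165 relative to the start site and 4 GGGCGG matches at -112, -92, -71 and -66, of which the last pair overlap by 1 base. The UNC5C window has 1 CCAAT match, on the opposite strand, at position -99. These matches are letters, not measured binding sites.

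The same letters were counted in windows of 250 bases before to 50 after each RefSeq start, on either strand. A start was found for 10749 of the tested genes (14884 windows), for 54 of the 67 genes lower than additive (69 windows) and for 35 of the 46 higher (68 windows). GGGCGG occurred in 73.9% of the windows of genes lower than additive, 47.1% of those higher and 58.1% of all. CCAAT occurred in 43.5%, 30.9% and 34.3%, and CACGTG in 8.7%, 10.3% and 8.55%. TGANTCA occurred in 7.25%, 4.41% and 6.32%, TATAAA in 7.25%, 5.88% and 8.57%, and TGACGTCA in 0%, 0% and 2.29%. Windows of 1 gene can overlap, so these shares are a description without a test.

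Most of the largest upward departures were in genes that each compound lowered. NHSL2, of the Nance-Horan syndrome protein family, read 9.85, 9.93 and 9.87 with vehicle, 8.30, 8.32 and 8.09 with JQ1, 8.39, 8.18 and 8.40 with panobinostat, and 7.60, 7.75 and 7.69 with both (cluster 17104832, chromosome X). The 2 single-compound groups overlapped, and the combination arrays lay under all others. The changes of -1.65 and -1.56 sum to -3.20, and the combination reached -2.20. The interaction was 1.00 ± 0.12 (adjusted p = 0.00902) and stayed called without any 1 array. RD3, an inhibitor of retinal guanylate cyclase, read 9.26, 8.98 and 9.33 with vehicle, 7.61, 7.5 and 7.73 with JQ1, 7.78, 7.67 and 7.95 with panobinostat, and 7.34, 7.14 and 7.44 with both. Its combination arrays were again the lowest, 1.08 ± 0.16 above additive (adjusted p = 0.0164), while a dimmer RD3 cluster had 0.28. The call of RD3 held without any 1 array, but not without both vehicle array 1 and panobinostat array 1 (0.68).

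NPY2R, a receptor for the sympathetic transmitter neuropeptide Y, read 10.37, 10.22 and 10.07 with vehicle, 8.47, 8.32 and 8.29 with JQ1, 8.72, 8.77 and 8.75 with panobinostat, and 7.57, 7.74 and 7.80 with both. It was lowest with the combination, at a change of -2.52 against a sum of -3.33. The interaction was 0.81 ± 0.13 (adjusted p = 0.0166). POPDC2, a cAMP-binding membrane protein, read 9.94, 9.93 and 9.73 with vehicle, 8.13, 8.02 and 8.07 with JQ1, 8.24, 8.16 and 8.39 with panobinostat, and 7.37, 7.4 and 7.55 with both. The combination arrays did not overlap any other group, with an interaction of 0.97 ± 0.12 (adjusted p = 0.00902). PRDM10, a zinc finger regulator of transcription, changed by -1.20, -1.50 and -1.72 (interaction 0.98 ± 0.13, adjusted p = 0.0107). TRIL, a leucine-rich repeat partner of Toll-like receptor 4, changed by -1.26, -1.24 and -1.73 (interaction 0.78 ± 0.12, adjusted p = 0.0164), while its other cluster had 0.03. NPY2R lost its call without JQ1 array 2 or combination arrays 2 or 3 (0.74 to 0.89 over all omissions) or with median-centred arrays. TRIL lost its call without combination array 2 (0.72 to 0.84) and when its clusters were averaged (0.40).

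In 5 further genes no difference between the combination and a single compound passed the test. NAGPA, which uncovers the mannose 6-phosphate tag of lysosomal enzymes, changed by -0.90 with JQ1, -0.77 with panobinostat and -0.88 with both. The interaction was 0.79 ± 0.11 (adjusted p = 0.0128), and it stayed called without any 1 array. SNUPN, which imports small nuclear ribonucleoproteins, changed by -0.88, -1.05 and -1.11 (0.81 ± 0.13, adjusted p = 0.0203). TBX22, a T-box factor, changed by -1.18, -0.98 and -1.25 (0.92 ± 0.17, adjusted p = 0.0325). ATF7IP, a partner of the histone methyltransferase SETDB1, changed by -0.71, -0.61 and -0.57 (0.74 ± 0.12, adjusted p = 0.0228). IKZF4, an Ikaros-family zinc finger factor, changed by -0.72, -0.64 and -0.66 (0.70 ± 0.12, adjusted p = 0.0201). All of these genes were below vehicle in every treated group. SNUPN lost its call without any of the JQ1 arrays, panobinostat array 2 or combination arrays 2 or 3 (0.72 to 0.90). IKZF4 lost it without vehicle array 3, JQ1 array 1, panobinostat arrays 2 or 3 or combination arrays 2 or 3 (0.64 to 0.76). TBX22 kept it only without vehicle array 3 or panobinostat array 3 (0.84 to 1.06), and ATF7IP only without vehicle arrays 1 or 3, JQ1 array 2 or combination array 1 (0.67 to 0.82).

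NXN and HEATR3 fell with each compound and overlapped vehicle with both. NXN, the redox protein nucleoredoxin, read 8.84, 8.69 and 8.84 with vehicle, 8.42, 8.24 and 8.31 with JQ1, 8.32, 8.29 and 8.40 with panobinostat, and 8.65, 8.71 and 8.74 with both. Its combination arrays were above all 6 single-compound arrays (0.38 above JQ1, adjusted p = 0.00251, and 0.36 above panobinostat, adjusted p = 0.00618). HEATR3, a factor in ribosomal protein import, read 9.27, 9.23 and 9.12 with vehicle, 8.81, 8.76 and 8.66 with JQ1, 8.76, 8.95 and 8.83 with panobinostat, and 9.04, 9.20 and 9.14 with both. The interactions were 0.83 ± 0.10 for NXN (adjusted p = 0.00902) and 0.75 ± 0.11 for HEATR3 (adjusted p = 0.0161). HEATR3 had an adjusted p of 0.0531 without combination array 2 (0.70 to 0.80 over all omissions). NXN stayed called without any 1 array.

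MAP2K6 and POLR3B each fell with 1 compound alone, and this fall was smaller or absent when the other compound was present. MAP2K6, which encodes an activating kinase of p38 MAP kinases, read 9.12, 9.01 and 9.04 with vehicle, 8.21, 8.13 and 8.29 with JQ1, 9.12, 9.30 and 9.35 with panobinostat, and 9.37, 9.42 and 9.54 with both (cluster 16837348, chromosome 17). JQ1 arrays were the lowest of the 12 and combination arrays the highest. JQ1 alone gave -0.85 (adjusted p = 4.92e-05), but JQ1 added to panobinostat gave 0.19, which did not pass the test (adjusted p = 0.147). The interaction was 1.04 ± 0.11 (adjusted p = 0.00694) and stayed called without any 1 array. POLR3B, the second-largest subunit of RNA polymerase III, read 9.96, 9.80 and 9.71 with vehicle, 9.88, 9.60 and 9.69 with JQ1, 8.63, 8.93 and 8.89 with panobinostat, and 9.41, 9.52 and 9.59 with both. Panobinostat arrays were the lowest, and adding JQ1 brought POLR3B up by 0.69 (adjusted p = 0.00125). Its interaction of 0.79 ± 0.15 (adjusted p = 0.0358) stayed called only without JQ1 array 1 (0.70 to 0.87).

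1072 of the genes were miRNA genes, and 3 of them were called, against 0.759% of all genes. MIR4525 read 8.76, 9.07 and 8.81 with vehicle, 8.90, 8.93 and 8.97 with JQ1, 9.93, 9.77 and 10.03 with panobinostat, and 11.09, 10.63 and 11.11 with both. Combination arrays were the highest, at a change of 2.07 against a sum of 1.08, an interaction of 0.98 ± 0.18 (adjusted p = 0.0358). The probes measure RNA of the locus, not the mature miRNA. The sequence source used here held no mature entry for the other called miRNA genes. The mature sequence of MIR4525 is shown with the seed (bases 2 to 8) in capitals, from RefSeq on GRCh38.p14 (chr17:82668281-82668301, minus strand).
miR-4525: gGGGGGAUgugcaugcugguu
MIR548AA1 and MIR124-1 were lower than additive, at -1.18 ± 0.19 (adjusted p = 0.0181) and -0.55 ± 0.10 (adjusted p = 0.0353), at mean log2 signals of 5.04 and 5.13 where the median gene had 7.24. MIR4525 stayed called only without vehicle array 1 or combination array 2 (0.89 to 1.14), MIR124-1 only without combination array 1 (-0.59 to -0.51), and MIR548AA1 lost its call without JQ1 array 1, panobinostat array 3 or combination array 2 (-1.33 to -1.02). The 1072 miRNA genes had a median interaction of -0.095, with 407 positive and 665 negative, and a median signal of 5.30.

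Additivity can also be stated on the linear signal, where the absolute changes of the compounds sum. On that scale (each gene in multiples of its own mean over the 12 arrays) 237 of 14884 genes departed (1.59%), and the split turned to 158 higher and 79 lower. Of the 113 genes above, 91 were also called on the linear scale, 44 of the 46 higher and 47 of the 67 lower, and in none did the sign differ. Of the 30 protein-coding genes with the most extreme interactions, 25 kept their call on the linear scale. A gene that both compounds lower, or both raise, has a linear additive level under its log2-additive one. For such a gene a positive log2 interaction is positive on the linear scale by arithmetic. The agreement in sign and the turn towards higher calls are thus in part fixed in advance. AHR is a gene whose call depended on the scale, with a linear departure of -0.19 (adjusted p = 0.445), as did MKNK2 (-0.14, adjusted p = 0.361), HSPA2 (-0.45, adjusted p = 0.142), SLIT2 (-0.36, adjusted p = 0.141), MEIS2 (-0.14, adjusted p = 0.272), HAND1 (-0.26, adjusted p = 0.113), PHOX2A (-0.17, adjusted p = 0.279) and POLR3B (0.46, adjusted p = 0.0509). SESN3 kept its departure (-0.50, adjusted p = 0.0065), as did UNC5C (-0.38, adjusted p = 0.0154) and MAP2K6 (0.60, adjusted p = 0.00498). POPDC2 was at 1.26 (adjusted p = 0.000356) and NHSL2 at 1.18 (adjusted p = 2.36e-05). Each compound alone lowered both genes by more than 1 log2 unit, so the summed absolute falls exceeded the vehicle signal. Their linear additive level was thus below 0, which no signal can reach, and an upward departure was fixed in advance. The scales have different units, so sizes are not compared between them.

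146 genes were called on the linear scale alone. Among the central genes of this system, TFAP2B, an adrenergic AP-2 transcription factor, was at 1.28 (adjusted p = 0.000768) and LIN28B, which blocks let-7 maturation, at 0.64 (adjusted p = 0.00584). LRRTM1, a synaptic adhesion protein, was at 1.46 (adjusted p = 7.38e-06). Their log2 interactions of 0.35 ± 0.13, 0.21 ± 0.14 and 0.57 ± 0.15 did not pass the test. Each compound alone lowered TFAP2B and LRRTM1 by more than 1 log2 unit. Their linear additive level was likewise below 0, so their upward departure on that scale was fixed in advance.

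**Figure D4:**
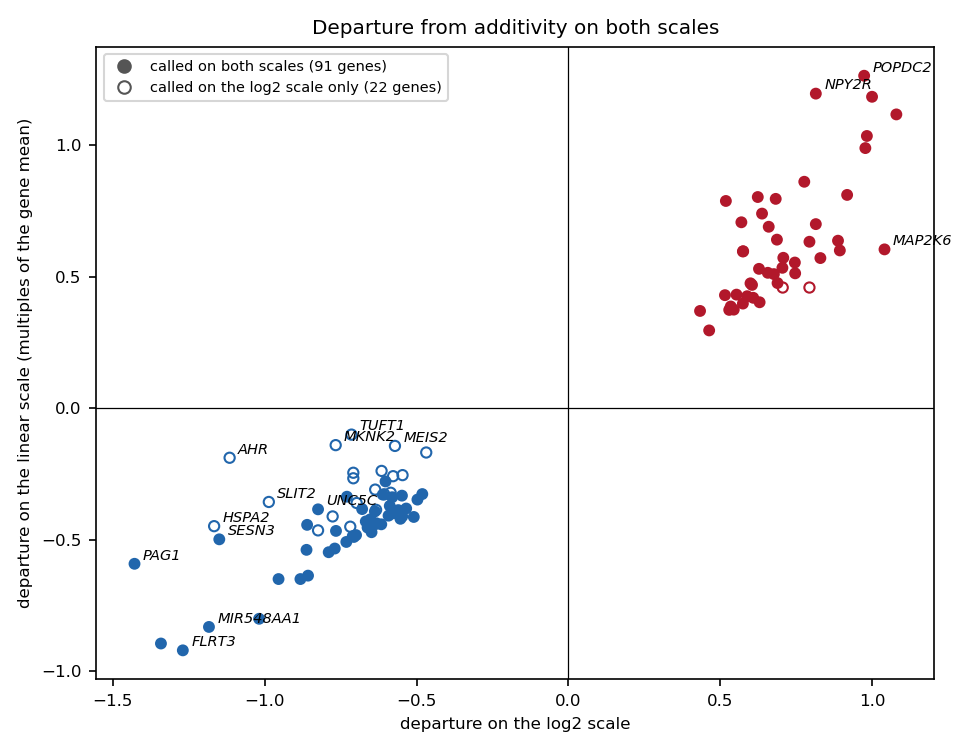
Departure on the log2 scale (x axis) against departure on the linear scale in multiples of the gene's mean (y axis) for the 113 genes called on the log2 scale. Filled points (91 genes) were called on both scales and open points (22 genes) on the log2 scale alone; AHR lies far to the left but near 0 on the y axis.

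The direct targets of the compounds gave no calls, which in lists of this size is near the background of 0.759% of all genes and is not a result about them. Of 19 BET, P-TEFb and elongation genes 0 were called (median interaction -0.028). HEXIM1, the P-TEFb inhibitor that BET blockade is known to induce, read 8.08, 8.02 and 8.04 with vehicle, 9.82, 9.90 and 9.98 with JQ1, 8.53, 8.49 and 8.43 with panobinostat, and 10.02, 9.97 and 10.03 with both. Its interaction was -0.33 ± 0.09 (adjusted p = 0.128), while a dimmer HEXIM1 cluster had 0.13. BRD2 was at -0.30 ± 0.14 (adjusted p = 0.344), BRD3 at -0.06 ± 0.08 (adjusted p = 0.838), and HEXIM2, a paralog of HEXIM1, at 0.66 ± 0.14 (adjusted p = 0.0583; 0.04 in a dimmer cluster). Of the 18 HDAC and sirtuin genes 0 were called (median -0.024), with HDAC1 at 0.06 ± 0.10, HDAC2 at -0.01 ± 0.10 and HDAC3 at 0.08 ± 0.16. SIRT4, a mitochondrial sirtuin, was farthest from 0 at 0.40 ± 0.18 (adjusted p = 0.355).

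The adrenergic transcription factors had 3 called members of 27, all lower than additive, against 0.45% of all genes, and a median of -0.226 with 21 negative and 6 positive values. The gene lists were written with earlier results of these data known, so their counts are descriptions and no evidence of enrichment. All 3 adrenergic calls were lost with median-centred arrays and when the replicate number was added to the fit. GATA3, a zinc finger factor of that circuit, was just outside the threshold at -0.46 ± 0.09 (adjusted p = 0.0526). HAND2 was at -0.23 ± 0.11 (adjusted p = 0.378). LMO1, a LIM-domain cofactor, was at 0.63 ± 0.18 (adjusted p = 0.134). TBX20, a T-box factor on no list and picked out after its values were seen, read 10.88 to 10.95 with vehicle, 11.05 to 11.07 with JQ1, 10.96 to 11.14 with panobinostat and 10.53 to 10.59 with both, an interaction of -0.65 ± 0.09 (adjusted p = 0.0128). Axon guidance and neuronal adhesion genes also had 3 called members of 29 (FLRT3, SLIT2 and UNC5C), all lower, against the same 0.45%, and a median of -0.185 with 21 negative values. EFNB2, an ephrin ligand and the member farthest from 0 among those not called, was at -0.65 ± 0.18 (adjusted p = 0.134).

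The signaling and stress lists had between 0 and 2 calls each, to be read against 0.759% of all genes. The MAP kinase list had the lowest median, -0.298 over 15 genes, with MKNK2 as its 1 call and DUSP10, a MAP kinase phosphatase, at -0.57 ± 0.15 (adjusted p = 0.118). The 11 p53 target genes had a median of -0.244 and 0 calls, with SESN1, a sestrin like SESN3, at -0.86 ± 0.25 (adjusted p = 0.147). The 26 immediate early genes had -0.125 and 0 calls, with IER5 at -0.72 ± 0.17 (adjusted p = 0.0782). NOTCH, WNT, TGF-beta and hedgehog genes had 2 calls of 26 (JAG1 and SFRP1, median -0.122), with the WNT receptor FZD7 at -0.80 ± 0.20 (adjusted p = 0.0998). Heat shock chaperones had 1 call of 13 (HSPA2, median 0.024), and the 16 genes known to rise with HDAC inhibitors had the same gene as their call (median -0.07). In that last list DHRS2, a short-chain dehydrogenase, had the highest interaction, 1.23 ± 0.35, which did not pass the test (adjusted p = 0.137). Its combination arrays spread from 7.98 to 8.99. The oxidative stress and metallothionein list had AHR as its call of 15 (median 0.022), with NFE2L2 at -0.51 ± 0.15 (adjusted p = 0.151) and KEAP1 at 0.29 ± 0.18 (adjusted p = 0.545). NFE2L2 is the transcription factor of the antioxidant response and KEAP1 its inhibitor. The neuronal secretory list had NPY2R as its call of 23 (median -0.053). The interferon and chemokine list had IFIT2, an interferon-induced RNA-binding protein, as its call of 16 (0.68 ± 0.13, adjusted p = 0.0368, median 0.102). IFIT2 had a low mean signal of 5.04 and stayed called only without vehicle array 2, JQ1 array 3 or combination array 1 (0.60 to 0.75). CCL2, a chemokine of the same list, was at 0.90 ± 0.26 (adjusted p = 0.145).

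The lists of cell death and growth genes had 0 calls each, again near the background of 0.759%. BCL2, an inhibitor of apoptosis, came close. It read 10.25, 10.09 and 10.13 with vehicle, 9.53, 9.45 and 9.45 with JQ1, 9.0, 8.93 and 8.97 with panobinostat, and 7.43, 7.79 and 7.74 with both. No groups overlapped, and the change of -2.50 against a sum of -1.87 gave an interaction of -0.63 ± 0.13 (adjusted p = 0.0545). On the linear scale its departure was 0.20 (adjusted p = 0.24), so the sign depends on the scale. Among the pro-apoptotic BH3-only genes BCL2L11 was at -0.44 ± 0.18 (adjusted p = 0.303) and PMAIP1 at -0.45 ± 0.13 (adjusted p = 0.144), and CFLAR, an inhibitor of caspase-8 activation, was at 0.29 ± 0.14 (adjusted p = 0.38). MYC was at -0.13 ± 0.18 (adjusted p = 0.823), its antagonist MXD1 at -0.43 ± 0.15 (adjusted p = 0.236), and CCND1, the G1 cyclin, at -0.37 ± 0.11 (adjusted p = 0.151). MYC had a mean log2 signal of 6.38, where the median gene had 7.24. No value of MYCN is given here, so the MYC value does not describe the amplified gene. IGF2BP3, an oncofetal RNA-binding protein, was at -0.44 ± 0.14 (adjusted p = 0.18). REEP6, an ER-shaping protein, was at -0.32 ± 0.21 (adjusted p = 0.561). The medians were 0.089 for 8 anti-apoptotic, -0.081 for 12 pro-apoptotic, 0.022 for 28 mitotic, -0.053 for 19 DNA replication and -0.098 for 19 G1 to S genes. They were 0.036 for 14 biosynthetic MYC targets, -0.021 for 19 sterol and fatty acid genes, 0.081 for 15 ER stress genes, 0.037 for 31 chromatin regulators and 0.009 for 19 ribosomal protein genes. A p that missed the threshold does not show that these genes were additive.

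**Figure D5:**
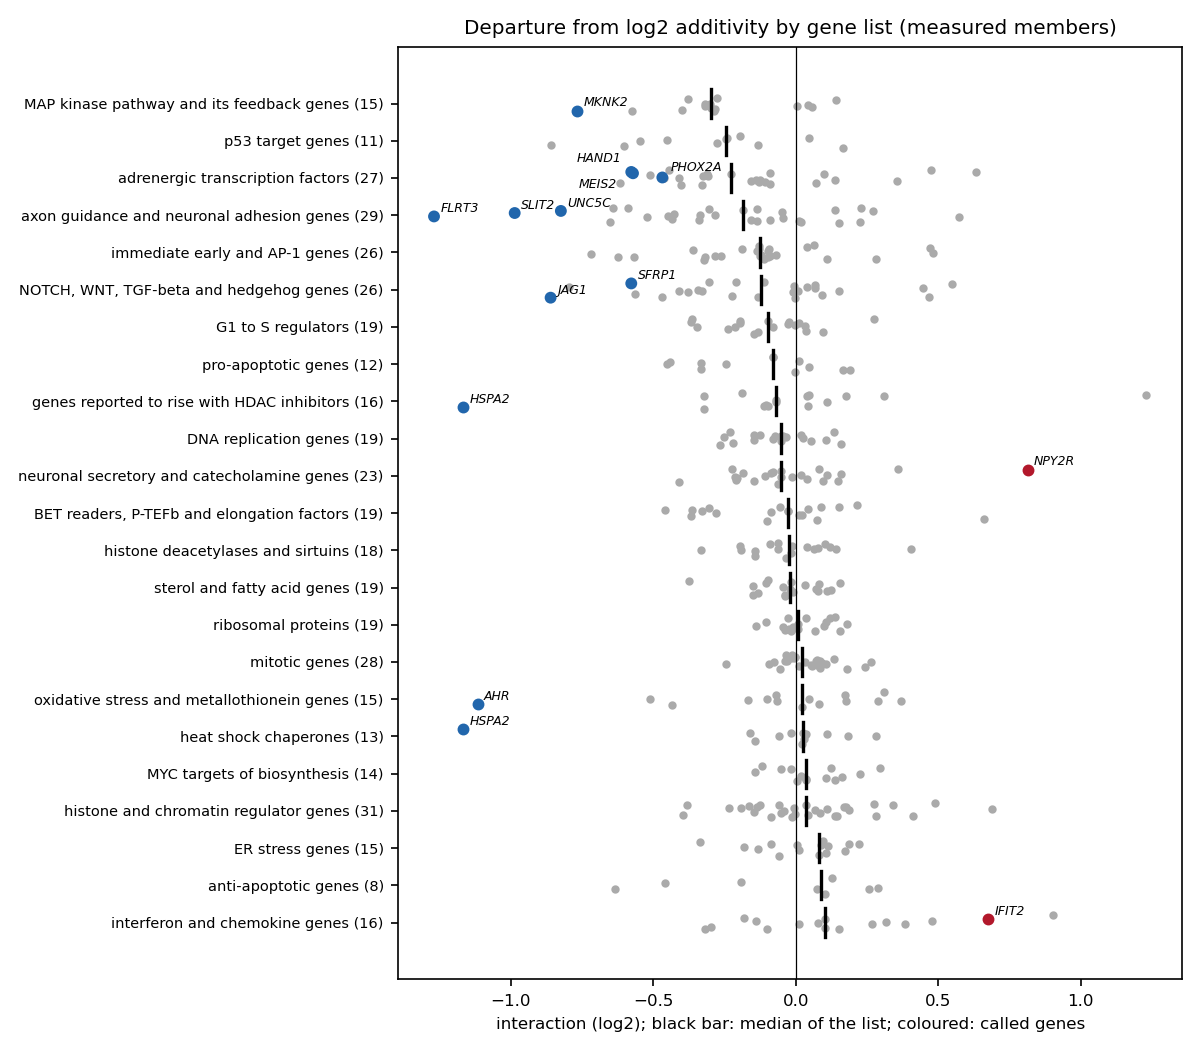
Interaction (x axis, log2) of the measured members of each gene list, ordered by list median (black bar), with the number of members in parentheses. Called genes are coloured and named; the MAP kinase list has the lowest median, -0.298, and most points of every list are grey.

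The label was checked against marker genes. The 9 neuroblast markers had mean log2 signals between 10.97 and 10.99 with vehicle, 10.88 and 10.93 with JQ1, at 10.58 with panobinostat, and 10.36 and 10.41 with both, all 9 above the median gene. Markers of mesenchymal (10 genes), Schwann (4), immune (3), epithelial (5) and endothelial (3) cells had mean signals between 5.61 and 7.99 in every group. Mesenchymal markers included SNAI2 at 11.90 and VIM at 10.02 with vehicle. Signals of different probe sets are not on 1 scale, so these levels do not rank cell types. None of these markers was called for an interaction, and the list medians were -0.124 for neuroblast, -0.11 for mesenchymal, 0.023 for Schwann, 0.047 for immune, -0.055 for epithelial and 0.197 for endothelial markers. The part of the falling neuroblast signal in the interactions of the adrenergic factors was not tested. In these bulk samples fewer cells of a type and less RNA per cell cannot be told apart.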

How the data were processed

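The table deposited by the authors holds 1 value per transcript cluster and array of the Affymetrix Human Gene 2.0 ST design. Per the values (1.391 to 14.097, array medians 6.119 to 6.292) these deposited numbers were read as log2 signals; the log base is not stated in the labels. MAS5 and affy are named in the submitters' processing notes, without role or version. How background was corrected, probes summarised and arrays normalized, and on which build, is not given in the sources used here. The values have no detection calls, so how far a signal stands over background cannot be said, and precision is set by the number of arrays.

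An annotation table named 16098 of 53617 clusters with 1 symbol each, and 37519 had none. This gave 14884 genes (779 with more than 1 cluster), fitted in R 4.3.3 with limma 3.58.1 (lmFit, eBayes, 1 coefficient per group, all 12 arrays, 8 residual and 3.457 prior degrees of freedom). P-values are two-sided and adjusted by Benjamini-Hochberg over all genes. For the linear scale, values were taken out of log2 and divided by the gene's mean. An exact permutation test of 3 against 3 cannot go under p = 0.1, so single genes were tested in the limma fit only.

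Named genes are the 15 protein-coding genes with the most positive and the 15 with the most negative interaction among called genes with a highest group mean of at least 7.238 (the mean of the median gene), the 23 measured of 26 central genes, and of each gene list up to 3 called members and 1 not called. Members and lists were chosen with earlier results of these data known. Alternatives were median centring, quantile normalization, dropping genes dimmer than percentile 40 of mean signal, the mean of a symbol's clusters, array weights, a trended or robust prior, a replicate block, adjustment over all clusters, the linear scale and leaving out arrays. Replicate numbers were not used as a pairing in the main fit, and whether same-numbered samples were handled together is not known.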

Additional observations from a re-analysis of the deposited data

Results flagged for a closer look

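Each result here is a difference between 2 effects that was tested as such: the effect of 1 compound in the presence of the other against its effect alone. 113 of 14884 genes had such a difference at an adjusted p under 0.05 (limma). Among the named genes below the additive level, the interactions on the log2 scale were -1.43 for PAG1, -1.27 for FLRT3, -1.18 for MIR548AA1, -1.17 for HSPA2, -1.15 for SESN3, -1.11 for AHR, -1.02 for RGS16, -0.99 for SLIT2 and -0.95 for ARRDC3. They were -0.88 for ETS1, -0.86 for JAG1, -0.86 for APOLD1, -0.86 for TMEM169, -0.82 for UNC5C, -0.79 for CRISPLD1, -0.78 for SIPA1L2 and -0.77 for MKNK2. SFRP1 was at -0.58, HAND1 at -0.58, MEIS2 at -0.57, MIR124-1 at -0.55 and PHOX2A at -0.47.

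Above the additive level, the interactions were 1.08 for RD3, 1.04 for MAP2K6, 1.00 for NHSL2, 0.98 for PRDM10, 0.98 for MIR4525, 0.97 for POPDC2, 0.92 for TBX22, 0.83 for NXN, 0.81 for SNUPN and 0.81 for NPY2R. They were 0.79 for NAGPA, 0.79 for POLR3B, 0.78 for TRIL, 0.75 for HEATR3, 0.74 for ATF7IP, 0.70 for IKZF4 and 0.68 for IFIT2. Groups of 3 arrays are too small for a test of a single outlying array. Any cause of these differences was not tested.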

How the results depend on the processing

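The 113 calls became 41 with median-centred arrays, 313 after quantile normalization, 259 without dim genes (8930 tested), 48 with a replicate block, 324 with a trended and robust prior, 322 with a trended prior alone, 220 with array weights, 5 adjusted over all clusters and 28 to 86 on leaving out 1 array. They were 237 on the linear scale, where 33.3% were lower than additive against 59.3% on the log2 scale. This turn is in part arithmetic, as described above. The 10 genes of at least 1 log2 unit became 18, 18 (trended prior alone), 21 (array weights), 3 (all clusters), 17 (without the 2 farthest arrays) and 6 to 15 (1 array left out). The 10 gene lists with a called member became 6 with centring, 17 with quantile normalization, 18 and 18 with the trended priors, 2 over all clusters and 5 to 10 with 1 array left out. The 237 linear calls became 126 with centring, 432 with quantile normalization, 120 with a replicate block and 461 without dim genes. The cause was not tested. Dropping dim genes or adding clusters changes how many tests are adjusted for, and also the set from which the prior is estimated. The 2 priors run alone were added after seeing the data.

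Of the 113 genes, 41 were also called with centring, 111 with quantile normalization and 43 with the replicate block. All 113 kept their sign in every log2 setting (99 where dim genes were left out, as only these were tested). This was largely fixed in advance. The priors, the replicate block and the adjustment over all clusters leave the interaction estimate itself unchanged. The 113 were also chosen for large interactions on these same arrays. Of the 30 protein-coding genes with the most extreme interactions, 5 stayed called in all 23 log2 settings (SESN3, AHR, UNC5C, MAP2K6 and NHSL2) and 9 more lost the call only in the adjustment over all clusters. The replicate numbers alone do not show whether same-numbered samples were handled together, and deviations from means of 3 arrays cannot decide it. Of 18 same-numbered pairs 4 had deviations that correlated above 0.1 (range -0.693 to 0.236). In these deviations 0 of 12 arrays correlated best with their own number. With the replicate block TBX22, SNUPN, NPY2R, POLR3B, ATF7IP, IKZF4, FLRT3, TMEM169, SIPA1L2, HAND1, MEIS2, PHOX2A, SFRP1, IFIT2, MIR4525 and MIR124-1 were not called. IFIT2 and MIR124-1 were also not called with a trended prior. With 3 arrays per group the median SE of the interaction over all genes was 0.148, and signal over background is unknown.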

Other observations

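Of the 37519 clusters without a gene name, 7 had an interaction at an adjusted p under 0.05 over all 53617 clusters (limma), 4 above and 3 below the additive level. In the same adjustment 5 named genes passed.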
